A study of Mus musculus with 98 samples.

Results

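The 3603 regions described here are places in the genome of mouse CD4 T cells where STAT5 and p300 were both found in chromatin, each in 2 peak lists. A region counted as a shared STAT5 site when a peak of the first STAT5 list overlapped a peak of the second by at least 1 base. It became a member when it also overlapped a shared p300 peak, that is, a peak of the first p300 list that overlapped a peak of the second. Of 26477 peaks in the first STAT5 list, 11214 were shared sites and 3603 were members, which is 32.1% of the shared sites (exact binomial 95% interval 31.3 to 33.0, counting error only) and 13.6% of the list. The choice of lists moved this share by more than that interval. It was 47.8% without p300 replicate 2, 55.0% without p300 replicate 1 (6168 members), 19.6% without STAT5 replicate 1 and 15.4% without STAT5 replicate 2. With a fold over input of at least 8 asked of the replicate 2 peaks of both factors, the share was 8.31% (452 members). That cut left 575 of 4498 shared p300 peaks and 5440 of 11214 shared STAT5 sites. The other 7611 shared sites had no shared p300 peak. Coordinates are those of mouse genome build mm9.

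The series combines chromatin immunoprecipitation sequencing (ChIP-seq) with RNA sequencing of cultured CD4 T cells that gained or lost STAT5. For ChIP-seq, naive CD4 T cells of wild-type C57BL/6 mice, from spleens pooled with lymph nodes, were sorted, activated through CD3 and CD28, and kept for 5 days with IL-2. Chromatin was taken with antibodies to STAT5A plus STAT5B, or to p300, with 2 libraries per target, and no resting or STAT5-deficient chromatin is analysed here. The RNA libraries used below are 3 of wild-type C57BL/6 cells rested overnight (day 3) and 3 rested and then given human IL-2 for 18 h (day 4). A further 12 come from wild-type C57BL/6 cells, or from C57BL/6 cells whose floxed Stat5a and Stat5b had been deleted by Cd4-Cre. All 12 carried empty control retroviral vectors, singly in sets 2 and 3 of the series and as a pair in set 5. They received IL-2 for 18 h and were taken on day 4. The statistical fit for these 12 also held the libraries of sets 2, 3 and 5 with STAT5, MYC, AKT or CD25 vectors, some of them combined in set 5. Cd4-Cre acts in every cell that has passed through the CD4-expressing stage of thymic development, so deletion preceded activation in culture.

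STAT5A and STAT5B are close relatives that are phosphorylated when IL-2 binds its receptor, enter the nucleus and bind DNA as dimers or tetramers. In CD4 T cells they drive growth, survival and the IL-2 receptor alpha chain itself, and they oppose some alternative helper fates. The protein p300 is a lysine acetyltransferase that binds no DNA sequence of its own. Transcription factors bring it to enhancers and promoters, where it acetylates histones and other proteins, and its presence is widely used to mark active enhancers. CREB-binding protein, encoded by Crebbp, is its closest relative.

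The 2 p300 lists resembled each other less than each resembled the STAT5 list of its own replicate number, and this touches every result on peaks below. Of the p300 peaks of replicate 1, 87.6% overlapped a STAT5 peak of replicate 1, 52.7% a STAT5 peak of replicate 2, and 42.0% a p300 peak of replicate 2. Of the p300 peaks of replicate 2, 63.3% overlapped a STAT5 peak of replicate 2, 40.4% one of replicate 1, and 24.5% a p300 peak of replicate 1. Of the STAT5 peaks, 42.4% of replicate 1 overlapped replicate 2 and 58.8% of replicate 2 overlapped replicate 1. In the file headers, the paths of both replicate 1 libraries carry the same numeric prefix, and those of the replicate 2 libraries do not carry it. Whether that prefix names a sequencing run was not established. Culture, run and input cannot be told apart between the replicate numbers. Sequencing depth was 16.2 M tags (replicate 1) and 6.45 M (replicate 2) for STAT5, and 18.6 and 17.0 M for p300. The share of tags inside peaks was 16.7 and 16.4% for STAT5 against 3.83 and 8.09% for p300, so the p300 lists rest on the weaker enrichments.

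**Figure D1:**
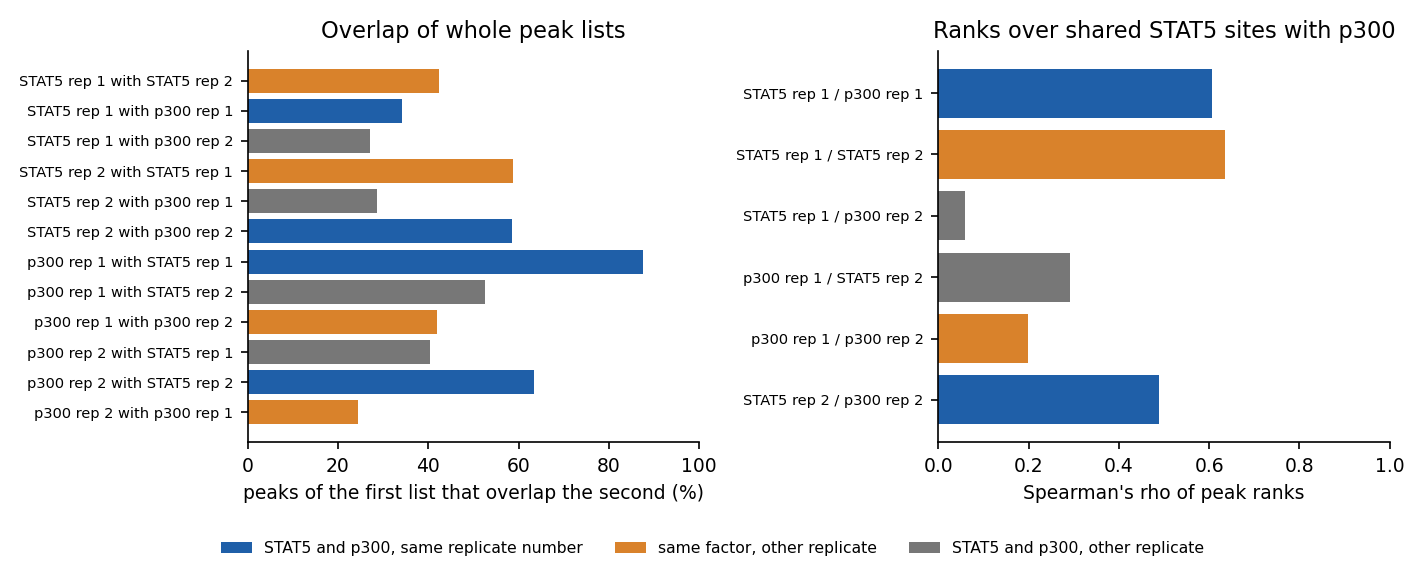
The left panel gives, for every ordered pair of the 4 peak lists, the percentage of the first list's peaks that overlap the second list; the right panel gives Spearman's rho between peak ranks over the 3603 shared STAT5 sites with p300, for each pair of lists. Blue bars (STAT5 and p300 of 1 replicate number) are the longest for both p300 lists, up to 87.6%, and on the right the 2 p300 lists reach only 0.20.

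The ranks of peaks within the members showed the same for p300. Replicate 2 lists give a height for each peak, its tags over the whole width scaled to a library of 10 M tags. Such a height is a sum and can be large because a peak is wide. Replicate 1 lists give no height and were ranked by their order. That order followed peak width (Spearman's rho -0.92 for STAT5 and -0.90 for p300) about as closely as in the replicate 2 lists, which are sorted by height (-0.88 and -0.92). Over the 3603 members, the STAT5 ranks of the 2 replicates had a rho of 0.63, while the p300 ranks of the 2 replicates had 0.20. STAT5 and p300 gave 0.61 within replicate 1 and 0.49 within replicate 2. Across numbers, STAT5 of replicate 2 and p300 of replicate 1 gave 0.29, and STAT5 of replicate 1 and p300 of replicate 2 gave 0.06. The members share their libraries, so these values describe 4 libraries and carry no p. Within the members, the ranks of STAT5 were thus closer between replicates than those of p300. Over the 7611 shared sites without p300, STAT5 list position in replicate 1 and height in replicate 2 had a rho of -0.27. Over the members this value was -0.63. Positions count from the top of the list, so a negative sign means that the 2 replicates go together.

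Shared STAT5 sites fell into 5 classes by where p300 was listed. Besides the 3603 members, 1635 overlapped a p300 peak of replicate 1 only, 2444 a p300 peak of replicate 2 only, 126 a peak of each that did not overlap each other, and 3406 none in either list. The median STAT5 height was 103.9 tags in members, 54.3 where only replicate 1 listed p300, 76 where only replicate 2 did, 83 where both did at unconnected peaks, and 43.4 where neither did. STAT5 peaks found in 1 list only seldom met shared p300. Of 15263 peaks of STAT5 replicate 1 with no partner in replicate 2, 487 (3.19%) overlapped shared p300, and so did 155 of 7963 (1.95%) of replicate 2 with no partner in replicate 1. Seen from p300, 3707 of 4498 shared p300 peaks (82.4%, interval 81.3 to 83.5) overlapped a shared STAT5 site, and 791 did not. That share was 35.1% without p300 replicate 1 and 53.0% without p300 replicate 2.

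STAT5 peaks were taller at members than at the other shared sites. The median height in replicate 2 was 103.9 tags (quartiles 54.3 and 215.6) at the 3603 members and 54.3 tags (quartiles 34.1 and 95.4) at the 7611 sites without p300, a ratio of 1.91. Heights come from 1 STAT5 library, so no test over samples can be made. The ranges overlapped, from 20.2 to 2551.8 tags in both groups, but the 2551.8 tags belong to 1 replicate 2 peak that covers a member and a site without p300. The next tallest height at a site without p300 was 1253.4 tags. Members made up 33.1% of the replicate 2 peaks at shared sites and held 50.7% of the tags in them. The order of the first STAT5 list, made from another library, had a median position of 4620 for members and 9390 for the others. That order follows peak width, and a wider peak overlaps p300 more readily under the rule. It is thus no independent support for the height difference.

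The taller peaks of members were also wider and lay over more input tags. Median width in replicate 2 was 365 bases at members and 265 at the others, and in replicate 1 it was 476 and 319. Per 100 bases, the medians were 25.5 and 19.3 tags, a ratio of 1.32. The input library, scaled by the authors to the STAT5 library, held a median of 8.1 tags under members and 4.9 under the others. As fold over input, the medians were close, 8.07 at members and 7.48 at sites without p300, a ratio of 1.08.

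The height gap was found among wide peaks and not among narrow ones. Shared sites were split into 5 classes of equal size by replicate 2 width. In the narrowest class both medians were 27.9 tags, and in the next 2 classes (up to 327 bases) the ratios were 1.04 and 1.07. In class 4 the medians were 119.4 and 90.0 tags (1.33), and in the widest they were 262.2 and 155.1 (1.69). Split by input tags instead, the ratio was 0.89 in the lowest of 5 classes, then 1.11, 1.57, 1.72 and 1.84. In the class with the least input, members were thus slightly lower, at 37.2 against 41.9 tags. Width and input move with both height and p300, and their part in the height gap was not tested further.

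**Figure D2:**
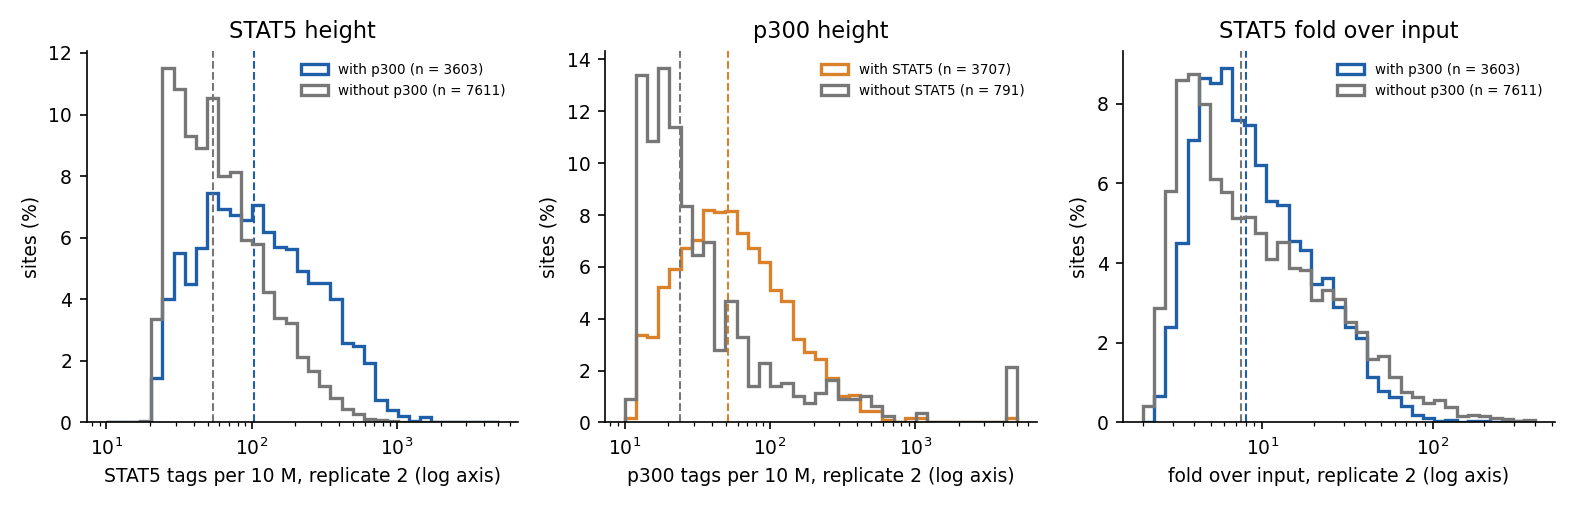
Histograms, as the percentage of sites in each bin on log axes, of STAT5 height, p300 height and STAT5 fold over input in replicate 2; dashed lines are medians. Members (blue) are shifted to the right of the other shared STAT5 sites in height, 103.9 against 54.3 tags, but hardly in fold over input, 8.07 against 7.48; shared p300 peaks with STAT5 (orange) have a median of 51.3 tags against 24.2 without.

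The share of sites with p300 climbed with STAT5 height. In deciles of replicate 2 height, it was 16.2% (interval 14.1 to 18.5) in the lowest, 26.1% in decile 5, 47.7% in decile 9 and 68.7% (65.9 to 71.4) in the highest. By order in the first STAT5 list, it went from 10.97% in the last decile to 57.0% in the first. Height and list order both go with peak width, and a wide peak meets the overlap rule more readily. The part of this in the climb was not tested. Of the 100 tallest shared sites 82 were members, and of the 1000 tallest 701 were. The relation differed when p300 was taken from the list of the other number alone. Peaks of p300 replicate 1 went from 38.4% to 75.1% with STAT5 height in replicate 2, whereas peaks of p300 replicate 2 stayed between 50.1 and 61.3% across the deciles of the first STAT5 list. Fold over input gave a hump. The share was 15.3% in the lowest decile, 42.6% in decile 5 and 22.1% in the highest, so the sites most enriched over input were members less often than those in the middle. By input tags alone it went from 5.53% in the lowest decile to 52.1% in the highest.

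**Figure D3:**
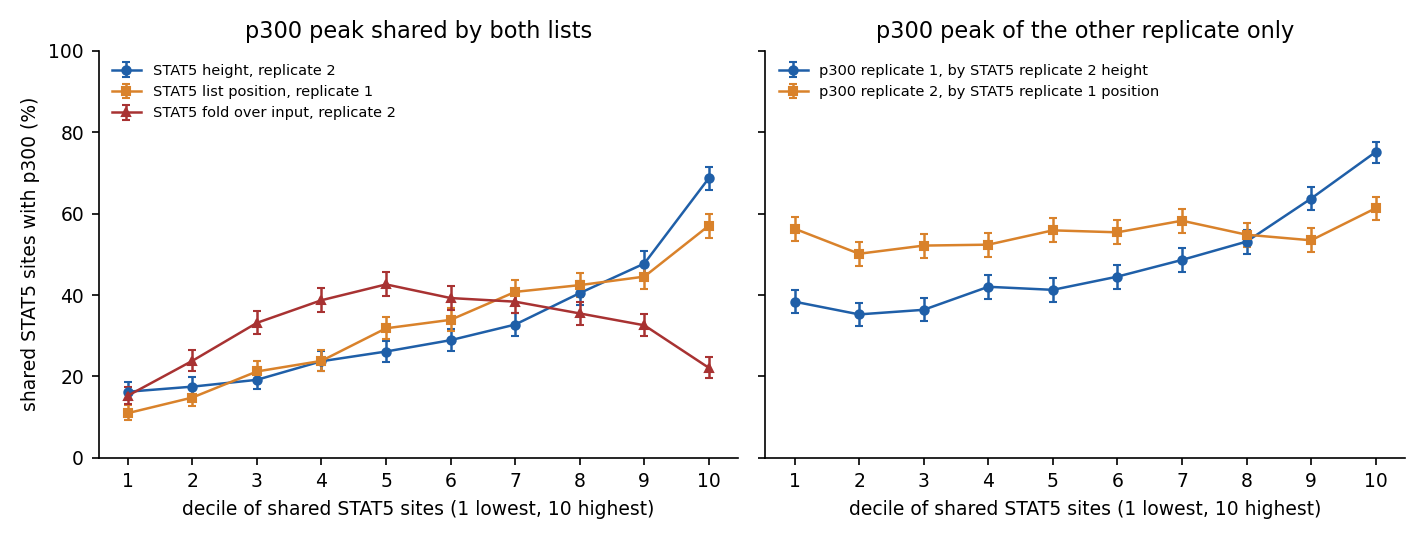
Percentage of shared STAT5 sites with p300 in deciles of the sites (1 lowest, 10 highest), with exact binomial 95% intervals; left, shared p300 peaks by STAT5 height, list position and fold over input, and right, p300 peaks of 1 list against STAT5 of the other replicate. The share reaches 68.7% by height but falls back to 22.1% by fold over input, and on the right only the blue line climbs, to 75.1%.

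Conversely, p300 peaks were taller where STAT5 was present. Shared p300 peaks with STAT5 had a median height of 51.3 tags in replicate 2 (quartiles 29.5 and 97.3), against 24.2 (16.5 and 49.5) without STAT5, a ratio of 2.12. The p300 peaks with STAT5 were also wider in replicate 2, at a median of 350 against 257 bases. They lay over more scaled input tags, 20.5 against 11.1. As fold over input the medians were 4.56 and 4.10. The part of width and input in the p300 height difference was not tested. The share of p300 peaks with STAT5 went from 55.7% in the lowest decile of p300 height to 94.0% in decile 8, and was 83.1% in the highest. This height ratio depended on the STAT5 list used: it was 2.38 with STAT5 of replicate 2 alone, the list of the same number as the p300 heights, and 1.08 with STAT5 of replicate 1 alone.

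In the replicate 1 lists, which give all positions in this paragraph, the p300 peak lay close to the middle of the STAT5 peak. The median distance between centres was 46.5 bases, within 50 bases at 53.1% of members, within 100 at 72.8% and within 200 at 89.1%. Such distances are bounded by the peak widths and the overlap rule. With p300 peaks of replicate 2 alone, the median was 64.75 bases over 6168 sites. In 98.6% of members the p300 centre fell inside the STAT5 peak, and 67.6% held the whole p300 peak. The STAT5 peak was the wider at 87.7% of members, and the overlap had a median of 280 bases. Median widths in replicate 1 were 476 bases for STAT5 at members and 287 for shared p300 peaks with STAT5. In replicate 2 they were closer, at 365 and 350 bases. Most members, 3498, had 1 shared p300 peak, 98 had 2 and 7 had 3 or more. Few members lay at the edge of the rule. Only 2 overlapped p300 by 10 bases or fewer, with a median STAT5 height of 59.7 tags, and 8 sites just outside it, within 100 bases of a shared p300 peak, had a median of 92.3. From the other shared sites, the next shared p300 peak was a median of 73084 bases away, although many of them overlapped a p300 peak of 1 list.

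**Figure D4:**
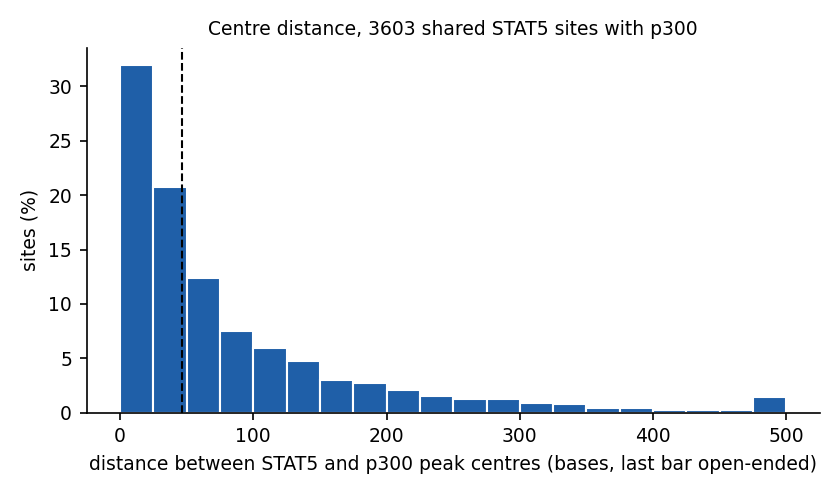
Distance in bases between the centres of the replicate 1 STAT5 and p300 peaks at the 3603 members (25-base bins, the last open-ended). The dashed line is the median of 46.5 bases. The first 2 bins hold most members.

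The tallest members show how height, fold and p300 combine. The highest stood at chr16:23986935-23990316, position 3 in the first STAT5 list, with 2551.8 STAT5 tags, 32.9-fold over input, but only 103.8 p300 tags, 2.90-fold over input. Next was chr9:107197690-107202113, the first peak of the first STAT5 list, with 2193.5 STAT5 tags and 1059.2 p300 tags. Then came chr11:117829232-117831856, with 1622.6 STAT5 tags and 125 p300 tags.

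The region on chromosome 9 held 4 of the 10 tallest members. Besides the site above, chr9:107209415-107211914 had 1535.8 STAT5 and 365.1 p300 tags, and chr9:107235732-107238689 had 1452 and 262.4. The fourth, chr9:107214286-107216474, had 1230.2 and 365.6. Within these 41000 bases lay 7 shared STAT5 sites, of which 6 were members, with 330.4 to 2193.5 STAT5 tags. The remaining tall members were chr10:94877783-94880921 (1506.3 STAT5 and 100.3 p300 tags), chr1:82827975-82829689 (1225.5 and 218.2) and a pair on chromosome 12. The pair, chr12:81215796-81217015 and chr12:81214903-81215594, lies under 1 replicate 2 peak of 1461.3 tags and cannot be told apart in height. Of the 10, 8 were among the first 100 peaks of the first STAT5 list. In all 10 the centres of the peaks lay more than 100 bases apart (111.5 to 437), where peaks are 692 to 4424 bases wide.

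Members near the median height look different. The sites chr17:4993594-4994657, chr1:184449844-184450531 and chr6:124690801-124691419 each had 103.9 STAT5 tags, with 46, 52.5 and 36.6 p300 tags. Their STAT5 fold over input was 12.9, 12.9 and 5.16, so equal heights went with unequal enrichment. Tall STAT5 peaks of replicate 2 also lay at shared sites that met no p300 peak. The tallest sites with none in either list were chr5:123465493-123465650 (806.7 tags, 10.3-fold over input), chr6:72295105-72295426 (539.8 tags, 15.8-fold) and chr7:3580914-3582280 (525.9 tags, 18.3-fold). These heights belong to the overlapping replicate 2 peaks, which are 1725, 1126 and 839 bases wide. Overlap with p300 was sought only under the replicate 1 peaks, of 158, 322 and 1367 bases. Whether p300 overlapped the remainder of the replicate 2 peaks was not tested. Only the site on chromosome 7 was high in the first STAT5 list as well, at position 307, against 22311 and 11280.

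By p300 height, which sums tags over the peak, the 5 members with the most tags shared 1 broad p300 peak. In replicate 2 it spanned 32420 bases (chr14:54812987-54845406) with 4324.6 tags, where the first p300 list had 23 separate peaks. Of these 23, 6 overlapped a shared STAT5 site, giving 6 members, and 17 did not. STAT5 height at the 5 sites was 26.4 to 291.6 tags, mostly below the median member. Outside it, the tallest p300 peaks at members had 1059.2 tags (the chromosome 9 region), 1034.4 tags at chr11:69223845-69224514, where STAT5 stood at 1079.7, and 932.4 tags at chr10:127105036-127105520, where STAT5 stood at 350.6. Those p300 peaks were 8216, 3135 and 2917 bases wide in replicate 2, against a median of 350 for shared p300 peaks with STAT5. Without the broad peak there were 3597 members, the STAT5 height ratio stayed at 1.91 and the p300 height ratio was 2.17.

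Members lay closer to other STAT5 sites than the sites without p300 did. The next shared STAT5 site was a median of 7773.5 bases away from a member and 19182 bases from the others. Within 12.5 kb, 58.5% of members and 41.8% of the others had another shared site. The next member was 29136.5 and 89973.5 bases away. Joined at 12.5 kb, the members formed 2811 chains, of which 2289 were single members (63.5% of members), 354 were pairs, 145 held 3 or 4, and 23 held 5 or more. Members in chains were taller than single members, and the p300 medians increased with chain length. The median STAT5 height was 96.2 tags for single members, 121 in pairs, 113.2 in chains of 3 or 4 and 126.5 in chains of 5 or more, and the p300 medians were 46.6, 55.1, 65.8 and 99.4 tags.

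The longest chains, of 8 members each, lay at chr17:35330844-35359791, chr14:54819322-54853507 (the broad p300 peak and its flank) and chr11:87558422-87570953. The chain on chromosome 17 had STAT5 heights of 43.4 to 695 tags. The chain on chromosome 11 packed 8 members into 12532 bases, with 23.3 to 311.8 tags, and none of its shared STAT5 sites lacked p300. In a chain of 6 at chr2:11556640-11577556 every member stood between 158.2 and 729.1 tags, above the median member. In the 3 chains of 8, low and high peaks stood side by side.

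By chromosome, the share of shared STAT5 sites with p300 ran from 24.8% of 161 on X to 39.8% of 512 on chromosome 15. The 95% interval held the overall 32.1% for 19 of 20 chromosomes, and chromosome 15 (35.6 to 44.2) was the exception. Among 20 intervals at the 95% level, such a miss by counting error alone is not unusual. Chromosomes 2 and 11, which held the most shared sites, gave 31.4 and 33.5%.

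The transcripts of the proteins themselves were measured in separate RNA libraries. Genes were tested with edgeR's quasi-likelihood test and called at a Benjamini-Hochberg adjusted p below 0.05 over all genes. Levels are counts per 1 M (CPM), and in bulk RNA fewer cells of a type and less RNA per cell cannot be told apart. In the STAT5-deficient libraries Stat5a stood at 1.78 to 17.1 CPM and Stat5b at 0.964 to 7.29, against 74.3 to 107.4 and 170.9 to 220.6 in wild type, as the genotype labels state. Il2ra, the IL-2 receptor alpha chain, went from 223.8 to 237.7 CPM at rest to 2171 to 2297 with IL-2, and from 2244 to 2870 in wild type to 87.6 to 201.2 in deficient cells.

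Both acetyltransferase transcripts were lower with IL-2. Ep300, which encodes p300, stood at 153.8, 157.0 and 136.4 CPM in the 3 rested libraries and at 123.3, 103.1 and 92.3 with IL-2. It fell by 0.49 on the log2 scale (SE 0.08, adjusted p 3.29e-05, edgeR). Crebbp stood at 114.5, 114.4 and 98.8 CPM at rest and at 76.5, 69.3 and 60.3 with IL-2, and fell by 0.68 (SE 0.08, adjusted p 3.47e-07, edgeR). The groups did not overlap for either gene. Stat5b fell by 0.40 (adjusted p 1.67e-06, edgeR), while Stat5a was not called (-0.11, adjusted p 0.116, edgeR). Rested cells were taken on day 3 and IL-2 cells on day 4, so IL-2 and day cannot be told apart.

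In STAT5-deficient cells both stood higher, Crebbp by more. Ep300 ranged from 114.4 to 197.4 CPM (median 171.8) in 6 deficient libraries and from 66.4 to 183.0 (median 138.2) in 6 wild-type ones. The groups overlapped. It rose by 0.30 on the log2 scale (SE 0.12, adjusted p 0.0296, edgeR), by 0.42, 0.17 and 0.30 in means within sets 2, 3 and 5, and the call was lost when any 1 of 4 libraries was left out (0.17 to 0.22). Those 4 were replicate 2 of the wild-type groups of sets 2 and 5 and replicate 2 of the deficient groups of sets 2 and 3. The rise was highest, at 0.63, without replicate 1 of the wild-type group of set 2. Crebbp ranged from 96.5 to 194.4 CPM against 38.9 to 101.5, and rose by 0.94 (SE 0.14, adjusted p 2.32e-07, edgeR), by 0.91, 0.77 and 1.14 within the 3 sets. The median over all genes was 0.05 and moved between -0.04 and 0.29 with scaling, filter or a library left out.

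**Figure D5:**
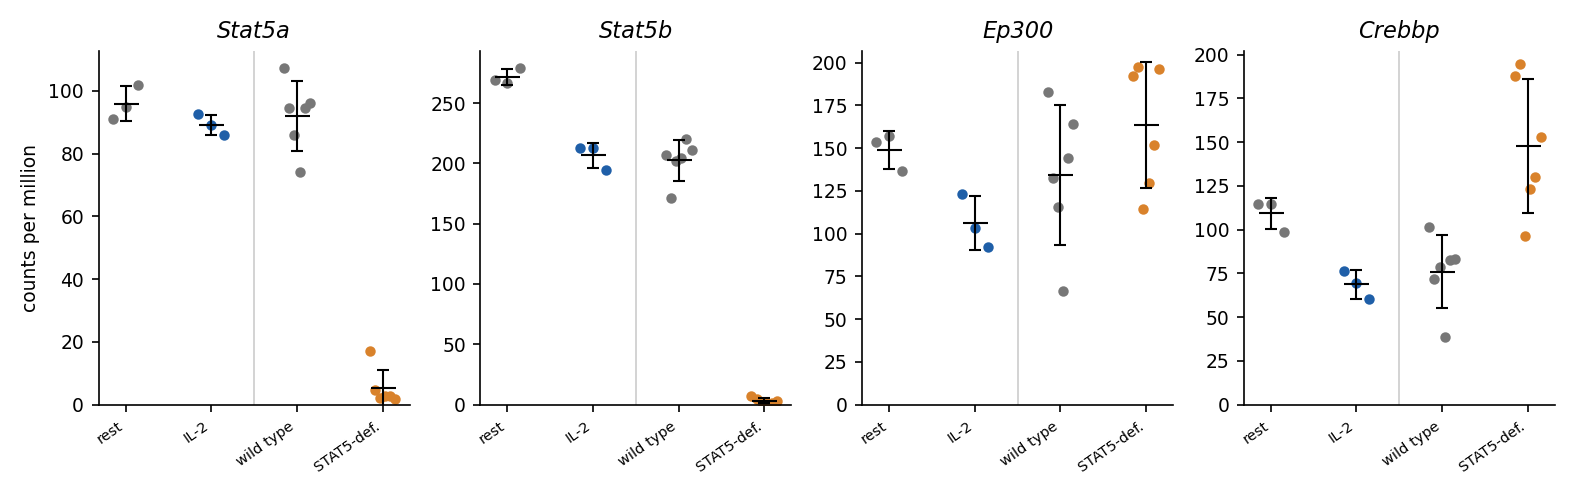
CPM of Stat5a, Stat5b, Ep300 and Crebbp in each library (points) with mean and SD (black), for 3 rested and 3 IL-2 libraries and for 6 wild-type and 6 STAT5-deficient libraries with control vectors. Ep300 and Crebbp lie lower with IL-2 in all 3 libraries; in deficient cells Crebbp lies between 96.5 and 194.4, and Ep300 overlaps wild type.

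Acetyltransferases, coactivators and corepressors, counted with Ep300 and Crebbp, moved in both directions. Of these 18 genes, 7 rose and 6 fell with IL-2, with a median of -0.0003 against -0.01 over all genes, where 81.1% of 12262 genes were called. With STAT5 loss, 6 rose and 6 fell, with a median of -0.02 against 0.05, where 59.8% of 16359 genes were called. The list was thus called at 72.2% with IL-2 and at 66.7% with STAT5 loss. For a list of 18 genes, both lie near the share over all genes. Kat2a, the acetyltransferase GCN5, rose by 1.37 with IL-2 (26.6 ± 1.06 to 68.9 ± 3.72 CPM, SD, n = 3 each, adjusted p 1.82e-12, edgeR). It fell by 1.21 with STAT5 loss (78.2 ± 11.3 to 33.5 ± 4.25 CPM, SD, n = 6 each, adjusted p 5.63e-15, edgeR). Ncoa3, a nuclear receptor coactivator, rose by 0.87 with IL-2 and fell by 0.97 with STAT5 loss. Its relative Ncoa2 fell by 1.21 with IL-2 and rose by 0.94 with STAT5 loss. Ncoa1, of the same family, fell by 0.38 and rose by 0.78. Smarca4, the remodelling ATPase BRG1, rose by 0.56 and fell by 0.43. Hdac2, a histone deacetylase, rose by 0.96 with IL-2 and was not called with STAT5 loss (-0.13, adjusted p 0.19, edgeR). Its relative Hdac1 fell by 0.49 with STAT5 loss, and Ncor1, a nuclear receptor corepressor, rose by 0.43. With each of the 12 libraries left out in turn, the calls with STAT5 loss held for Smarca4 (-0.48 to -0.21), Hdac1 (-0.59 to -0.27) and Ncor1 (0.35 to 0.68). The values nearest 0 came without replicate 1 of the deficient group of set 3 for Smarca4 and of set 2 for Hdac1, and the highest for Ncor1 without replicate 1 of the wild-type group of set 2.

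The CD4 T cell markers Cd3e, Cd3g, Cd4, Cd5 and Lck were high in all 18 libraries, and their sum moved with the groups in the same direction as Ep300 and Crebbp. It was 2926 to 2953 CPM at rest against 1946 to 2107 with IL-2, and 3174 to 3383 in deficient against 1911 to 2689 in wild-type cells. Within that sum only Lck was higher with IL-2, at 591.9 to 632.6 CPM against 551.4 to 567.9 at rest. Summed markers of other cells were low and moved the same way, though not every single marker did. The 5 myeloid markers summed to 76.9 to 91.7 CPM at rest against 4.08 to 5.66 with IL-2, and to 59.5 to 248 in deficient against 11.7 to 42.7 in wild-type cells. Most of that sum was Cd74, the invariant chain of MHC class II, at 53.6 to 69.55 CPM at rest and a median of 148.1 in deficient cells, while Lyz2 and Csf1r were at or near 0 in every library. The 3 NK markers summed to 18.9 to 21.9 at rest and 0.368 to 1.34 with IL-2, and to 4.88 to 9.39 and 0.654 to 2.96 in deficient and wild-type cells. In rested cells the NK sum was all Klrd1, as Klrb1c and Ncr1 were at 0. The 3 B cell markers summed to 15.3 to 15.8 CPM at rest and 3.02 to 3.235 with IL-2, and to 3.41 to 11.4 and 1.06 to 2.81 in deficient and wild-type cells. The 2 CD8 markers summed to 19.8 to 22.7 and 9.77 to 12.7, and to 16.4 to 28.4 and 11.04 to 18.0, where the groups overlapped. Of these, Cd8b1 carried most of the sum. Cd8a went the other way with STAT5 loss, with medians of 1.265 CPM in deficient and 2.21 in wild-type cells and overlapping ranges. Ncr1, an NK cell receptor, was at 0 in all 6 libraries of set 1. The part of these markers in the transcript differences was not tested.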

How the data were processed

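The headers of the peak lists show that HOMER findPeaks made them, although MACS2 stands in the submitters' processing notes. For replicate 2 the deposited values are the tag signal of a peak scaled to 10 M tags, its fold ratio over input and a p-value over input, per the file headers. Replicate 1 lists deposited by the authors hold a constant score of 1 and no height. Peaks were required to pass Poisson thresholds of 1e-14 (replicate 1), 1e-17 (STAT5 replicate 2) and 1e-18 (p300 replicate 2), per the file headers. Headers name STAT5b directories, while the labels give antibodies to STAT5A and STAT5B. Overlaps were computed in Python 3.11.15 and checked against bedtools 2.31.1. No genome or annotation of mm9 was used here, so sites were not linked to genes or sequences, and the planned motif count was not run.

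RNA values are the authors' deposited gene counts; TopHat2, Bowtie2, HTSeq and mm9 stand in the submitters' processing notes. They were tested with edgeR 4.0.16 in R 4.3.3 (TMM, filterByExpr) in 2 fits: the 6 libraries of set 1 (13.0 to 23.7 M counts), and all 52 libraries of sets 2, 3 and 5 in 26 groups, contrasting the mean of the 3 within-set differences (5.72 to 31.4 M counts in the 12 libraries compared). Counting was not stated to use strand, and Stat5a and Stat5b are close paralogs. Whether replicates were separate animals is not in the labels, so a p-value reflects only variation between these libraries, which may be technical. Same-numbered libraries of sets 2, 3 and 5 deviated together, with correlations of 0.256 to 0.323. There is 1 value for each of 3 sets, since the deviations of 2 replicates mirror each other. The values reported above use no term for this pairing, which entered only as the replicate block among the alternatives. With the block, Ep300 rose by 0.32 with STAT5 loss (adjusted p 0.0108, edgeR) and Crebbp by 0.96.

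Named sites are the 10 members with the tallest STAT5 peak, the 5 with the tallest p300 peak and the 3 nearest the median. Tall sites without p300, tall p300 peaks outside the broad one, and chains were added after values were seen. Named genes are Stat5a, Stat5b, Ep300, Crebbp, Il2ra and up to 4 called cofactors per direction; Hdac2 was also given in both comparisons. The sites and gene lists were chosen with earlier results of these data known, and 1 cofactor and 1 marker were later left out of them and are not reported here. Alternatives covered the overlap rule, peak thresholds, each list or library left out, scaling, filter, DESeq2 1.42.0 and the replicate block.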

Additional observations from a re-analysis of the deposited data

How the results depend on the processing

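No named transcript changed sign, and both height ratios kept their direction, the p300 ratio being 1.08 at its lowest. The number of members, the shares and the distance have no direction to turn. The split by input tags, with a STAT5 ratio of 0.89 in the lowest class, is not among these alternatives. With peak centres within 100 bases as the overlap, members numbered 1835, 21.9% of shared STAT5 sites had p300 and 56.6% of shared p300 peaks had STAT5, the height ratios were 1.45 (STAT5) and 1.36 (p300), and the median distance was 26.5 bases. A fold over input of at least 8, asked of the replicate 2 peaks of both factors, left 575 shared p300 peaks. There were then 452 members (8.31%), 79.8% of p300 peaks had STAT5, the STAT5 ratio was 2.10 and the distance 38.5. With the upper 50% of the replicate 2 lists, these were 2378, 33.5%, 76.9% and 1.59, the p300 ratio was 1.70 and the distance 50 bases. Among sites with no shared STAT5 site within 1000 bases, 74.7% of p300 peaks had STAT5 and the p300 ratio was 1.64. Leaving out each list in turn gave 3779 to 6168 members, 15.4 to 55.0% of STAT5 sites with p300, 35.1 to 92.8% of p300 peaks with STAT5, STAT5 ratios of 1.51 to 2.25, p300 ratios of 1.08 to 2.38 and distances of 44 to 64.75 bases. The highest number of members, 6168, came without p300 replicate 1. A height ratio has no value without its own replicate 2 list. Counting in replicate 2 peaks, an overlap of at least 50% of the shorter peak, and leaving out the broad p300 peak (chosen after seeing the data) moved the 6 results by little. The cause of these moves was not tested.

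Of 18 cofactors, 11 to 15 were called under every alternative. With the replicate block, 12 were called with STAT5 loss, as without it, and no named gene's call changed; in set 1, whose numbers did not pair the samples (correlations 0.015 to 0.029), 13 were called with the block and 9873 genes in all against 9942. No paired analysis was possible for the peak results because they come from no test over samples. STAT5 heights in replicate 2 rest on 6.45 M tags, and the effect of that depth was not tested.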
